A study of Mus musculus with 18 samples.

Results

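shCdk8-2 cells were compared with shCdk8-1 cells in DMSO, that is, the weaker with the stronger knockdown of Cdk8 mRNA in E0771, a mouse mammary tumor cell line that the labels call triple negative. The comparison held 6 of the 18 libraries of the series, 3 titled shRNA CDK8.1830 DMSO (shCdk8-2) and 3 titled shRNA CDK8.1593 DMSO (shCdk8-1), and the members were taken by these titles. Per the study's methods, E0771 cells that already carried a Firefly luciferase construct received 1 retroviral vector with mCherry and a hairpin, which in the third line (cntrl) is directed at Renilla luciferase, a sequence foreign to mouse cells. The lines received either DMSO or Senexin B (SnxB, 1 µM), an inhibitor of CDK8 and its paralog CDK19, over 48 h, and the 12 libraries outside the comparison were used as reference. The labels do not say whether the replicates of a line came from separate cultures, so p-values measure the spread between these libraries, which may be technical. Each hairpin is represented by 1 transduced line, so what differs between the hairpins cannot be told apart from what differs between the lines that carry them. The numbers in the titles were used as names only. Matched by hand to Cdk8, the hairpins of the methods lay in the opposite order to these numbers, so which hairpin sequence each line carries is not settled here, and the lines are named as the labels name them.

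CDK8 is a cyclin-dependent kinase that works in the nucleus as part of the Mediator complex, which connects transcription factors with RNA polymerase II. With cyclin C, MED12 and MED13 it forms a kinase module that docks on the core of Mediator and comes off again. CDK19 can take the place of CDK8 in the module, and the module is known both to help and to restrain transcription, depending on the gene.

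The 6 libraries held 17794820 to 22664693 counts (median 19278966). A gene with 3 counts in a library is at 0.132 to 0.169 CPM there (counts scaled to a common library size, for this floor without TMM scaling), and lower levels cannot be told from 0. The other CPM are after TMM scaling, with factors of 0.987 to 1.016 in the 6 libraries. Of the 10 mammary epithelial markers, Krt5, Krt14, Krt18 and Krt19 had at most 1 count in any of the 6 libraries, Pgr had 0, Epcam 0 to 6, Cdh1 2 to 14 and Esr1 12 to 27. Krt8 had 137 to 279 counts and Erbb2 had 865 to 1051, and the 10 markers summed to 55.6 to 61.5 CPM in shCdk8-1 and 59.4 to 63.3 CPM in shCdk8-2 libraries. Of the leukocyte markers, Ptprc, Cd3e and Itgam had at most 1 count in each of the 6 libraries, whereas Lyz2 had 30 to 58 and Cd68 had 24 to 60. The 8 markers summed to 3.31 to 4.49 CPM in shCdk8-1 and 4.09 to 4.93 CPM in shCdk8-2.

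Replicate 3 of shCdk8-2 and replicate 2 of shCdk8-1 stood apart from the other libraries of their lines. In a comparison of replicates over 10442 genes, where a mean chi-square per gene of 1 is counting noise, shCdk8-2 replicate 3 was at 11.4 and 12.3 from the other replicates and these at 2.68 from each other, and shCdk8-1 replicate 2 was at 13.5 and 19.7 and the others at 4.45. In shCdk8-2 replicate 3, 7 called genes were over 5-fold above each of the other 5 libraries, and 5 of them are noncoding RNAs or annotated as such (Rn7sk, Mir6236, Gm23935, Gm15564 and Gm42418). Gm42418 was at 5765 CPM there, against 474 to 883 CPM in the other 5 libraries, and Lars2, which encodes the mitochondrial leucyl-tRNA synthetase, was at 406 CPM against 47.5 to 76.1 CPM. Replicate 2 of shCdk8-1 had the lowest level of mitochondrially encoded transcripts, 4271 CPM summed over 13 genes, whereas the other 5 libraries reached up to 14634 CPM, and the highest levels of Med12, Med13 and Fasn. Results were recomputed with each of the 6 libraries left out.

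Cdk8 itself, the targeted gene (ENSMUSG00000029635.15, GRCm38 chromosome 5, 146231230 to 146302874, plus strand), was higher in every shCdk8-2 library than in any shCdk8-1 library. It was measured at 22.2, 18.7 and 23.4 CPM in the shCdk8-1 libraries and at 38.5, 38.9 and 39.2 CPM in the shCdk8-2 libraries. Both lines were below the cntrl libraries, which held 58.6, 54.8 and 55.1 CPM. The mean was 21.4 ± 2.44 CPM (SD, n = 3) in shCdk8-1 and 38.9 ± 0.376 CPM (SD, n = 3) in shCdk8-2, a log2 fold change of 0.85 (SE 0.0666, adjusted p = 3.07e-07, edgeR). In SnxB the same lines held 20.2 to 24.8 CPM and 36.6 to 41.6 CPM, and the log2 fold change was 0.77 (adjusted p = 4.59e-07).

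The paralog Cdk19 (chromosome 10, 40339564 to 40483818) ran the other way. Its level was 123, 129 and 123 CPM in shCdk8-1 and 104, 101 and 102 CPM in shCdk8-2, with cntrl at 93.5 to 93.9 CPM. The 3 lines thus stood in the order cntrl, shCdk8-2, shCdk8-1 without overlap, and the step from shCdk8-1 to shCdk8-2 was a log2 fold change of -0.30 (SE 0.036, adjusted p = 2.84e-05). In SnxB it was -0.20 (adjusted p = 1.72e-03). Against cntrl, Cdk8 had log2 fold changes of -1.39 with shCdk8-1 and -0.54 with shCdk8-2, and Cdk19 had 0.42 and 0.12.

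The other tested genes of the kinase module did not pass the test. Ccnc, which encodes cyclin C, was at 75.5 ± 1.63 CPM in shCdk8-1 and 79.4 ± 3.18 CPM in shCdk8-2 (SD, n = 3 each), and its adjusted p was 0.258. Med12, Med13 and Med13l had log2 fold changes of -0.22, -0.11 and -0.00 with adjusted p of 0.153, 0.425 and 0.962. The shCdk8-1 libraries spread widely in Med12, at 122, 169 and 124 CPM, and in Med13, at 126, 156 and 118 CPM, with replicate 2 the highest in both. Of the 26 core Mediator genes, 3 were higher and 5 lower in shCdk8-2, with a median log2 fold change of -0.02, and over all 12590 genes tested 11.3% were higher and 10.6% lower. The lower members were 3 without shCdk8-1 replicate 1 or 3 or shCdk8-2 replicate 2 or 3, and 3 of 24 outside chromosomes 10 and 19. Med15, a tail subunit, rose from 35.7 ± 0.531 to 49.5 ± 2.27 CPM (SD, n = 3 each; log2 fold change 0.46, adjusted p = 2.43e-06), which is near the cntrl mean of 51.2 CPM. Med23, another tail subunit, fell by 0.31 on the log2 scale (adjusted p = 9.84e-04), while its change in SnxB was -0.06 (adjusted p = 0.499).

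**Figure D1:**
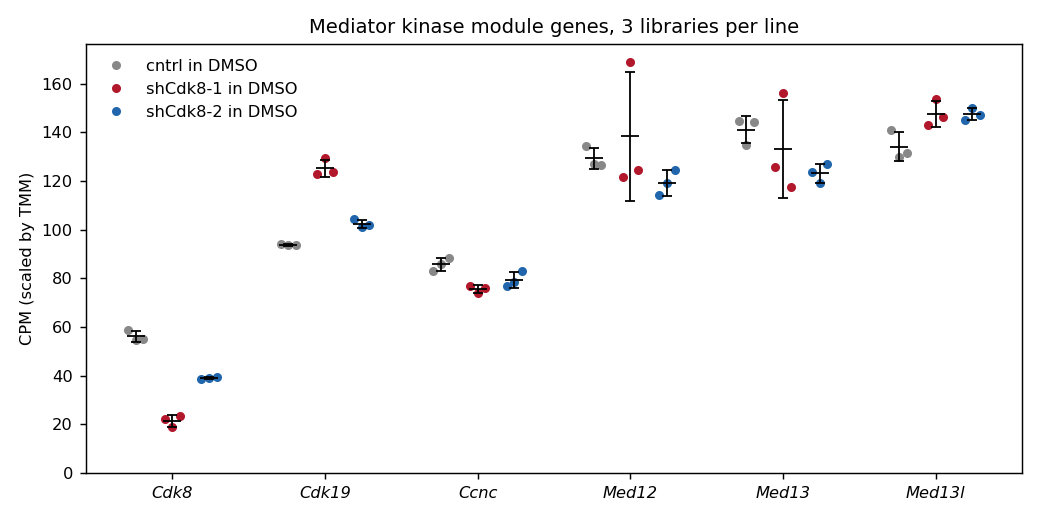
CPM of 6 Mediator kinase module genes (y axis) in the 3 lines in DMSO. Points are libraries, and the black bars are means with SD (n = 3). Cdk8 rises from shCdk8-1 to shCdk8-2 and to cntrl with no overlap, Cdk19 falls in the same order, and the shCdk8-1 libraries spread most in Med12 and Med13.

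Across the genome, the lines differed in many genes by small amounts and in fewer genes by large ones. Of 12590 genes tested, 1428 were higher (11.3%) and 1338 lower (10.6%) in shCdk8-2 at an adjusted p under 0.05, hereafter called passing the test, and the median size of their log2 fold changes was 0.25. The change was above 2-fold as well in 261 genes (2.07%), hereafter the called genes, of which 173 were higher (1.37%) and 88 lower (0.699%) in shCdk8-2. Among the called genes 240 were protein-coding, 79 were over 4-fold higher and 10 over 4-fold lower. At most 3 counts in each shCdk8-1 library were found in 48 called genes, and at most 3 in each shCdk8-2 library in 5. In a model of the 6 libraries alone, 127 genes were called higher and 85 lower. The CPM of the 2 lines did not overlap in 260 of the 261, against 39.7% of all genes tested, a count that the call itself favors. Without shCdk8-2 replicate 3, 239 genes were called (160 higher and 79 lower), and 217 of the 261 were among them. Without shCdk8-1 replicate 2, 245 were called (160 higher and 85 lower), including 216 of the 261. With any 1 of the 6 libraries left out, 1082 to 1248 genes passed the test as higher and 872 to 1083 as lower. The genes named in the next paragraphs as the largest differences had a mean of at least 1 CPM over the 6 libraries and no overlap.

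Of the 12 largest differences upward, all but Gm15564 were in genes below 1 CPM in every shCdk8-1 library. Dab1, an adaptor of the reelin signaling pathway, had 0 counts in the 3 shCdk8-1 libraries and also in the 3 cntrl libraries, and was at 2.74, 3.06 and 2.19 CPM in the shCdk8-2 libraries. Against the level that 3 counts per library would give without TMM scaling, it was at least 17.1-fold higher in shCdk8-2 (adjusted p = 2.15e-06). Itih2, which encodes a heavy chain of the inter-alpha-trypsin inhibitor family, shared this pattern, since it was at 3.22, 2.55 and 2.9 CPM in shCdk8-2 but had 2, 1 and 1 counts in shCdk8-1 libraries. Its ratio was 42.3 (95% interval 16.3 to 157, exact binomial, counting error only), and its highest cntrl library was at 0.098 CPM. Dab1 and Itih2 were thus detected in shCdk8-2 cells, and in the other lines remained at or below the level of 3 counts.

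More often the cntrl line had the highest level and shCdk8-2 lay in between. Psd4, which encodes an exchange factor for ARF6, was at 0, 0.171 and 0.155 CPM in shCdk8-1, at 6.7, 5.82 and 6.47 CPM in shCdk8-2 and at 43.7 to 44.4 CPM in cntrl. Its ratio between the knockdown lines was 61.6 (95% interval 28.0 to 169). Gimap6, a GTPase gene known from lymphocytes, was at 1.96, 2.14 and 1.97 CPM in shCdk8-2 against 1, 1 and 3 counts in shCdk8-1 (ratio 23.5, interval 9.82 to 73.8) and 19.2 to 21.5 CPM in cntrl. Slit1, a ligand of ROBO receptors, stood at 1.83, 1.94 and 2.19 CPM in shCdk8-2 and at 7.26 to 9.75 CPM in cntrl, with a ratio to shCdk8-1 of 19.1 (interval 8.54 to 53.2). All 3 genes passed the test (adjusted p = 7.39e-10 for Psd4, 1.15e-07 for Gimap6 and 8.87e-07 for Slit1).

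Sele, which encodes the adhesion receptor E-selectin, was at 0.141, 0.171 and 0.207 CPM in shCdk8-1, at 3.09, 3.42 and 3.67 CPM in shCdk8-2 and at 13.9 to 15.2 CPM in cntrl, with a log2 fold change between the knockdown lines of 4.24 (SE 0.253, adjusted p = 1.85e-08). Grap, an adaptor of the GRB2 family, was at 0.752, 0.798 and 0.516 CPM against 8.23, 7.66 and 6.96 CPM, with cntrl at 53.3 to 58.2 CPM (log2 fold change 3.46, SE 0.158, adjusted p = 1.11e-09). Bin2, a BAR domain protein, followed with 0.228 to 0.564 CPM against 3.42 to 4.14 CPM and 28.9 to 31 CPM in cntrl (log2 fold change 3.21, adjusted p = 4.44e-08). In these genes the 3 lines formed separate levels, and shCdk8-2 was nearer to shCdk8-1 than to cntrl in CPM. Fam167b was at 0.094 to 0.399 CPM in shCdk8-1 and 3.62 to 3.96 CPM in shCdk8-2 (log2 fold change 4.28, adjusted p = 3.43e-08), with cntrl at 41.8 to 43.7 CPM. Tex19.2, by contrast, was higher in shCdk8-2 (1.94 to 2.39 CPM) than in shCdk8-1 (0.094 to 0.207 CPM) and in cntrl (0.431 to 0.813 CPM), with a log2 fold change of 3.77 between the knockdown lines (adjusted p = 9.19e-07).

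The remaining entries among the 12 largest, Rn7sk and Gm15564, rest on shCdk8-2 replicate 3. Rn7sk, the 7SK small nuclear RNA that holds the elongation kinase P-TEFb inactive, was at 0.784, 0.817 and 9.86 CPM in shCdk8-2 against 0.235 to 0.31 CPM in shCdk8-1. Without replicate 3 its log2 fold change moved from 3.68 to 1.52, and its adjusted p from 0.0201 to 0.0873, and it also did not pass without shCdk8-1 replicate 1 or 3 (adjusted p = 0.0632 and 0.0508) or in a model of the 6 libraries alone. Gm15564 was at 16.3, 10.8 and 141 CPM against 7.18 to 8.15 CPM, and its log2 fold change of 2.83 became 0.82 without that library (adjusted p = 0.0225). In SnxB neither passed the test, with log2 fold changes of 0.26 and -0.07.

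Of the 12 largest differences downward, several were in genes that cntrl cells hardly expressed. Thbs1, which encodes the matrix glycoprotein thrombospondin-1, was at 5.12, 6.44 and 6.35 CPM in shCdk8-1, at 1.04, 0.46 and 0.712 CPM in shCdk8-2 and at up to 0.108 CPM in cntrl (log2 fold change -2.97, SE 0.213, adjusted p = 1.16e-07). Sox6, a transcription factor of the SOX family, was at 2.16, 2.34 and 2.01 CPM against 0.392, 0.255 and 0.274 CPM (log2 fold change -2.77, SE 0.29, adjusted p = 6.05e-06). Hephl1, a copper-dependent ferroxidase gene, and Aass, an enzyme gene of lysine breakdown, had 0 counts in the 3 cntrl libraries. Hephl1 was at 3.2 to 3.34 CPM in shCdk8-1 and 0.613 to 0.784 CPM in shCdk8-2 (log2 fold change -2.20, adjusted p = 2.44e-05), and Aass was at 3.93 to 5.76 CPM and 0.986 to 1.44 CPM (log2 fold change -1.96, adjusted p = 4.74e-05).

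Ppargc1a, which encodes the coactivator PGC-1alpha of mitochondrial genes, was the most clearly separated of the lower genes. It was at 29.2, 29.6 and 30.8 CPM in shCdk8-1 and at 6.31, 6.94 and 5.81 CPM in shCdk8-2, with cntrl at 3.04 to 3.9 CPM, and the log2 fold change was -2.23 (SE 0.0812, adjusted p = 9.78e-11). Hipk2, a nuclear kinase gene, was at 17.5, 20.5 and 15.3 CPM against 5.27, 5.46 and 4.49 CPM (log2 fold change -1.80, adjusted p = 3.84e-07), and the ephrin receptor gene Epha8 at 19.9, 18.5 and 21.9 CPM against 5.31, 7.25 and 5.75 CPM (log2 fold change -1.73, adjusted p = 1.82e-08). In both, shCdk8-2 lay between shCdk8-1 and cntrl, which was at 1.23 to 1.84 CPM for Hipk2 and 0.308 to 0.434 CPM for Epha8. Aldh1l1, an enzyme gene of folate metabolism, Limch1, a regulator of myosin, and Syt8, a synaptotagmin, had log2 fold changes of -2.40, -1.92 and -1.92 and the same order of lines. Ctsh, a lysosomal protease gene, was at 8.08 to 10.6 CPM in shCdk8-1 and 2.03 to 2.76 CPM in shCdk8-2 (log2 fold change -1.97, adjusted p = 2.09e-07). Trf, which encodes the iron carrier transferrin, had its lowest levels in shCdk8-2, at 1.15 to 1.99 CPM, against 5.97 to 7.29 CPM in shCdk8-1 and 2.17 to 3.23 CPM in cntrl (log2 fold change between the knockdown lines -1.90, adjusted p = 4.46e-06).

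**Figure D2:**
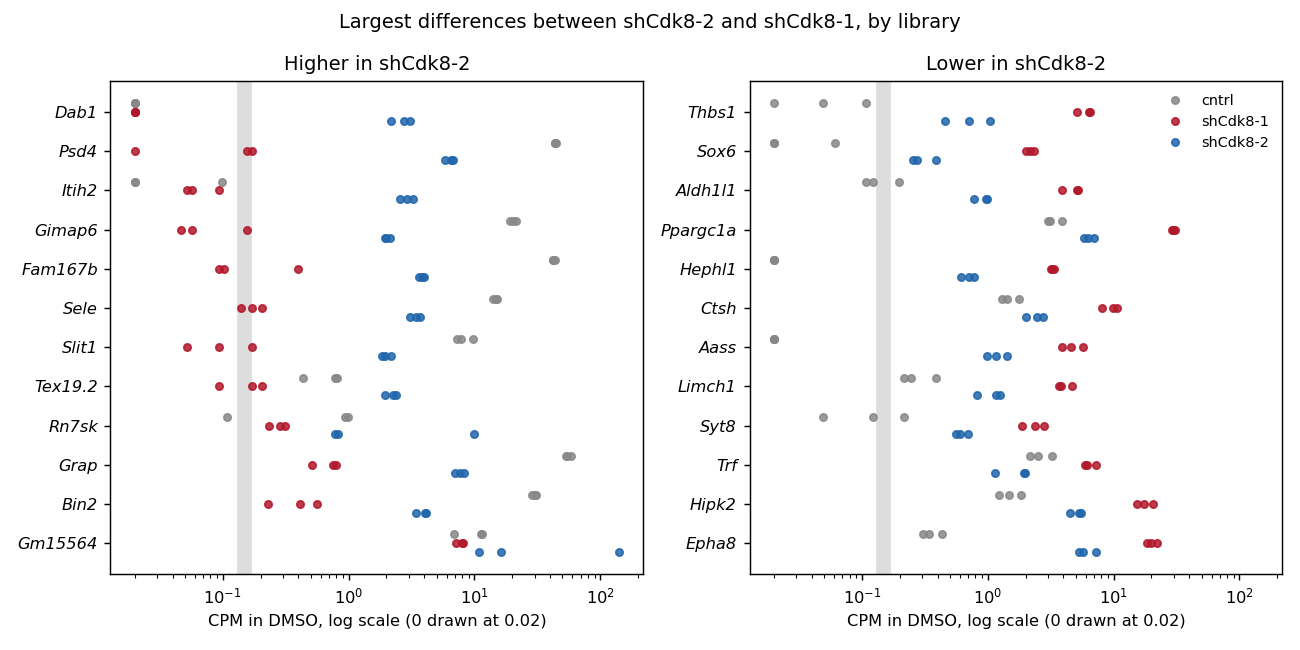
CPM per library on a log scale (x axis) of the 12 genes with the largest fitted difference in each direction, in DMSO. Each point is a library, zeros are drawn at 0.02, and the gray band spans the CPM that 3 counts give in the 6 libraries without TMM scaling. In most genes shCdk8-2 lies between shCdk8-1 and cntrl, while in Rn7sk and Gm15564 1 shCdk8-2 library lies far to the right of the other libraries.

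The position of shCdk8-2 relative to the other lines was counted over the group means in CPM. It was the middle line in 136 of the 173 called genes that were higher in shCdk8-2 and in 63 of the 88 that were lower, which is 76.2% of the called genes against 51.8% of all genes tested. shCdk8-1 was the middle line in 16 called genes, and cntrl lay between the knockdown lines in 44, or 16.9%, against 14.3% of all genes tested. In SnxB, shCdk8-2 was the middle line in 204 of the 261 (78.2%, against 52.1% of all genes tested), where the libraries of the knockdown lines had no part in the call but those of cntrl were in its model. Since the called genes were chosen for a large gap between the knockdown lines, the DMSO shares are partly set by that choice, and no test was run on them.

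The same pair of lines in SnxB gave a check in 6 libraries that the comparison in DMSO does not use. All 261 called genes were tested there (12772 genes tested in all), 256 had the same direction, 201 also passed the test and 176 of them were above 2-fold. For comparison, 9495 of the 12577 genes tested in both treatments had the same direction, 20.9% of all genes passed the test and 2.1% were called in SnxB in either direction. Over the called genes, log2 fold changes had a median size of 1.58 in DMSO and 1.35 in SnxB. Fold changes of the called genes correlated between the treatments with r = 0.88, and over the 12577 genes tested in both with r = 0.75, a description across genes and not across replicates. The 5 called genes that turned direction were 4930518I15Rik, A730011C13Rik, Gm23935, Gm15564 and Notch4, and none of them passed the test in SnxB (adjusted p of 0.427 or more).

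When the difference between the lines was itself compared between the treatments, 0 of 12772 genes passed (0.0%, edgeR, smallest adjusted p = 1.00). At an unadjusted p under 0.05 there were 431 genes with edgeR and 251 with DESeq2, and DESeq2 also gave 0 genes after adjustment. Among the called genes, Acta2, which encodes smooth muscle actin, had the smallest unadjusted interaction p (0.00158), with a log2 fold change between the lines of 1.14 in DMSO and 0.90 in SnxB. F2rl3 and Mgat5 followed, but both had 0 counts in the 3 shCdk8-1 libraries in DMSO and at most 6 in a shCdk8-2 library, and F2rl3 did not pass without shCdk8-2 replicate 1 or 3 (adjusted p = 0.0586 and 0.0511). Runx1t1, a corepressor gene, was at 0.611, 0.399 and 0.723 CPM against 1.22, 1.17 and 1.64 CPM in DMSO, while its means in SnxB were 1.09 and 1.14 CPM. None of these differences between treatments passed the adjusted test.

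**Figure D3:**
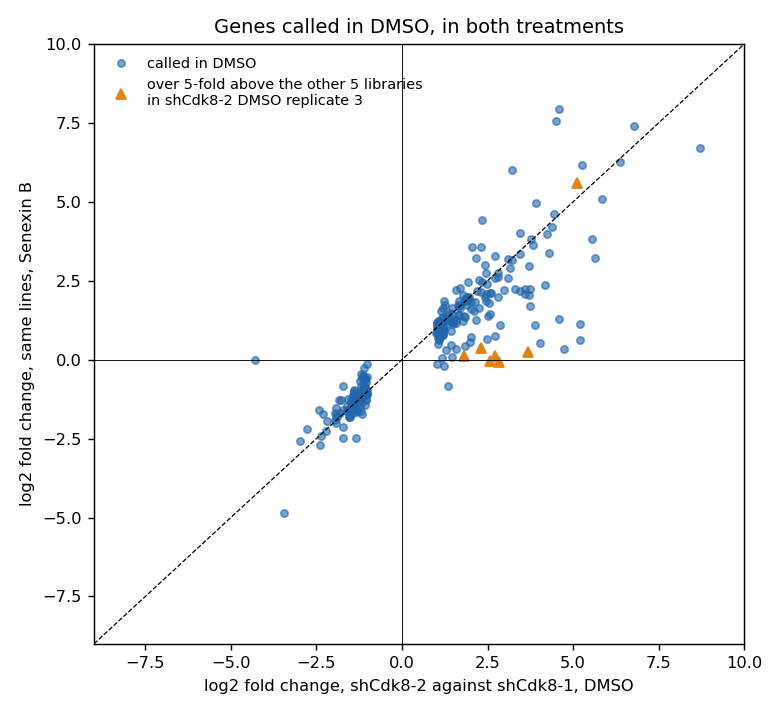
Fitted log2 fold changes of shCdk8-2 against shCdk8-1 for the 261 called genes in DMSO (x axis) and SnxB (y axis). Points are genes, the dashed line marks equal values, and triangles are the 7 genes that were over 5-fold above the other 5 libraries in shCdk8-2 DMSO replicate 3, of which 6 lie near 0 in SnxB. Values beyond about 5 in size rest on genes near 0 counts in 1 line.

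Genes of sterol and fatty acid synthesis were lower in shCdk8-2 nearly throughout. All 25 tested members of the list had a negative log2 fold change (-0.62 to -0.17), and 23 passed the test, against 10.6% of all genes, while the median was -0.28 and that of all genes tested was -0.00. Lss, which encodes lanosterol synthase, was at 161, 162 and 160 CPM in shCdk8-1 and at 103, 108 and 105 CPM in shCdk8-2, with a log2 fold change of -0.62 (SE 0.0359, adjusted p = 1.46e-08) and a cntrl mean of 65.0 CPM. Mvd, a decarboxylase gene of the mevalonate pathway, fell from 48 to 50.2 CPM to 34.5 to 35.7 CPM (log2 fold change -0.49, adjusted p = 3.07e-06). Sqle, which encodes squalene epoxidase, was at 264, 258 and 261 CPM against 213, 209 and 204 CPM (log2 fold change -0.33, adjusted p = 6.38e-06).

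None of these 25 genes reached 2-fold. Acaca and Idi1 did not pass (adjusted p of 0.0564 and 0.209). In SnxB, 22 of the 25 were lower and 0 higher, with a median of -0.29. With each library left out the number was 21 to 24, and outside chromosomes 10 and 19 it was 20 of 22. Fasn, the fatty acid synthase gene, was an exception in SnxB, with a log2 fold change of -0.01 (adjusted p = 0.975) after -0.32 in DMSO, where shCdk8-1 replicate 2 was the highest library at 1132 CPM and the other 5 lay at 719 to 893 CPM, and its adjusted p in DMSO went from 0.0328 to 0.164 without that library, and to 0.0554 to 0.123 without any 1 of the shCdk8-2 libraries. shCdk8-2 was the middle line in 20 of the 25 genes.

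Of 22 genes of glycolysis and the hypoxia response, 11 were lower and 1 was higher in shCdk8-2, with a median of -0.11, against 10.6% lower and 11.3% higher among all genes tested. Pfkl, the liver-type phosphofructokinase gene, was at 329, 350 and 333 CPM in shCdk8-1 and at 240, 242 and 239 CPM in shCdk8-2 (log2 fold change -0.49, SE 0.0332, adjusted p = 5.86e-08). Tpi1, which encodes triosephosphate isomerase, and Hk2, a hexokinase gene, fell by 0.25 and 0.32 on the log2 scale (adjusted p = 1.12e-04 and 9.56e-04). Ankrd37, a gene known to respond to hypoxia, was the one that rose (log2 fold change 0.46, adjusted p = 0.0200). It did not pass without shCdk8-1 replicate 2 or shCdk8-2 replicate 3 (adjusted p = 0.0699 and 0.0879). The lower members were 7 or 8 with each library left out, 7 without shCdk8-1 replicate 1 or shCdk8-2 replicate 3.

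Cell cycle genes moved little. Of 28, 8 were lower and 1 higher, with log2 fold changes between -0.20 and 0.19, against 10.6% lower and 11.3% higher among all genes tested. Ccnd2, a D-type cyclin gene, was at 1067 ± 31.3 CPM in shCdk8-1 and 953 ± 6.54 CPM in shCdk8-2 (SD, n = 3 each; adjusted p = 4.21e-03), and the helicase subunit gene Mcm4 rose by 0.19 (adjusted p = 6.92e-04). The lower members were 7 without shCdk8-2 replicate 2 and 3 or 4 without any other library. In the list of CDK inhibitors and p53 targets, 2 of 17 were higher and 4 lower, and 2 were lower without shCdk8-1 replicate 1 or 3 or shCdk8-2 replicate 3. Cdkn1a, which encodes the inhibitor p21, was at 58, 54.5 and 54.9 CPM against 42.4, 42.5 and 41 CPM (log2 fold change -0.41, adjusted p = 2.42e-05). Pmaip1, which encodes the death-promoting BH3 protein NOXA, had 0, 2 and 1 counts in shCdk8-1 and was at 1.35, 1.53 and 1.26 CPM in shCdk8-2 (ratio 26.8, 95% interval 8.86 to 133, adjusted p = 1.74e-06), with cntrl at 11.8 to 13.4 CPM.

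Surface and antigen presentation genes split. Of 18 tested genes of MHC class I presentation, 7 were higher and 2 lower in shCdk8-2, with a median of 0.10, and 4 were higher without shCdk8-1 replicate 1 or shCdk8-2 replicate 1. Over all genes tested, 11.3% were higher and 10.6% lower. H2-D1, a classical class I heavy chain gene, was at 254, 252 and 248 CPM in shCdk8-1 and at 301, 296 and 301 CPM in shCdk8-2 (log2 fold change 0.25, SE 0.0306, adjusted p = 3.29e-05), whereas H2-K1, the other classical heavy chain gene, was at 60.1, 55.9 and 61.7 CPM against 36.9, 40.6 and 38.4 CPM (log2 fold change -0.62, SE 0.0472, adjusted p = 2.09e-07). The 2 genes thus ran in opposite directions between the knockdown lines, and both were highest in cntrl, at 594 to 616 CPM and 106 to 109 CPM. They resemble each other in sequence, so short reads could be hard to assign, and reads that map to several places were left out of the counts. Whether this had a part in their values was not tested. B2m, the light chain gene, rose by 0.17 (adjusted p = 2.15e-03), and the immunoproteasome genes Psmb8 and Psmb9 by 0.36 and 0.83. In SnxB, H2-K1 was lower by 0.72 on the log2 scale and H2-D1 higher by 0.22.

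Of 28 interferon response genes, 3 were higher and 1 lower, with a median of 0.06, and the share of higher genes was near the 11.3% of all genes tested. Without shCdk8-1 replicate 1 or 3, 1 was higher. Ifitm3, an antiviral membrane protein gene, rose from 227 ± 3.11 to 271 ± 6.27 CPM (SD, n = 3 each; log2 fold change 0.25, adjusted p = 2.09e-04). The chemokine gene Cxcl10 was at 1.27, 2.05 and 1.45 CPM against 2.31, 2.71 and 2.47 CPM (log2 fold change 0.66, adjusted p = 0.0219), but it did not pass with DESeq2 or without shCdk8-1 replicate 1 or 3 or shCdk8-2 replicate 2 or 3 (adjusted p of 0.0535 to 0.106). Among 14 ligands read by NK and T cells, 6 were higher and 0 lower, with 3 of 9 higher outside chromosomes 10 and 19, against 11.3% of all genes tested. Fas, the death receptor gene, rose from 1.41, 1.42 and 1.45 CPM to 2.83, 3.37 and 2.96 CPM (log2 fold change 1.09, SE 0.152, adjusted p = 9.73e-05). Icam1, which encodes the adhesion ligand of LFA-1, was at 2.77, 3.82 and 3.41 CPM against 6.96, 6.43 and 6.25 CPM (log2 fold change 0.98, adjusted p = 1.17e-04) and was lowest in cntrl, at 1.36 to 1.6 CPM. The NKG2D ligand gene Raet1e rose by 0.31 (adjusted p = 7.81e-03).

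The 19 genes that the study drew from these libraries for NK cell-mediated cytotoxicity split into 7 higher, 3 lower and 9 that did not pass, and since the study chose them on these samples, the list is not independent evidence of a direction. All genes tested had shares of 11.3% higher and 10.6% lower. Ptk2b, which encodes the kinase PYK2, was at 11.2, 10.2 and 9.55 CPM in shCdk8-1, at 21.1, 19.5 and 21.9 CPM in shCdk8-2 and at 91.7 to 96.2 CPM in cntrl (log2 fold change between the knockdown lines 1.00, SE 0.0712, adjusted p = 1.08e-07). Itgb2, the beta subunit gene of LFA-1, was at 5.64, 5.41 and 7.33 CPM against 8.79, 10.5 and 9.81 CPM (log2 fold change 0.65, adjusted p = 1.04e-03). Syk and Plcg2, a tyrosine kinase gene and a phospholipase gene of immune receptor signaling, ran the other way. Syk was at 12.5, 11.3 and 11.6 CPM against 6.27, 6.64 and 6.68 CPM (log2 fold change -0.86, adjusted p = 5.70e-06), with cntrl at up to 0.0616 CPM, and Plcg2 at 6.44, 6.78 and 7.33 CPM against 3.79, 3.17 and 2.68 CPM (log2 fold change -1.08, adjusted p = 5.34e-05).

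The rest of that list was mostly low. Vav1, an exchange factor gene, had 0, 1 and 2 counts in shCdk8-1 and 7, 5 and 3 in shCdk8-2 (ratio 4.79, 95% interval 1.35 to 25.8, adjusted p = 0.0320), but it did not pass with DESeq2 or without shCdk8-1 replicate 1 or 2 or shCdk8-2 replicate 1 or 2 (adjusted p up to 0.161). Nfatc2, a transcription factor gene of activated lymphocytes, had a log2 fold change of 0.47 (adjusted p = 0.0118) and did not pass without shCdk8-1 replicate 3 or shCdk8-2 replicate 2 (adjusted p of 0.0561 and 0.0580). Raet1d, another NKG2D ligand gene, had a log2 fold change of 0.21 (adjusted p = 0.0321) and did not pass with DESeq2 or without shCdk8-1 replicate 2 or 3 or shCdk8-2 replicate 1 or 3 (adjusted p up to 0.119), and its reads could be shared with near-identical Raet1 copies. Cd274, which encodes PD-L1, was at 3.29, 2.51 and 2.27 CPM against 2.7, 3.47 and 2.47 CPM, with overlapping groups (log2 fold change 0.08, adjusted p = 0.783), while in SnxB its log2 fold change was 0.58 (adjusted p = 0.0211). Cd244a, Shc4, Tnfsf10, Klra4, Lcp2, Icam2, Rac3 and Prkcb did not pass, with adjusted p between 0.0661 for Cd244a and 0.897 for Prkcb.

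Of the 3 genes that the study followed by qPCR, 2 passed. Mmp9, a matrix metalloprotease gene, was at 1.13, 1.37 and 0.93 CPM in shCdk8-1 and at 3.83, 5.26 and 3.67 CPM in shCdk8-2, with cntrl at 9.55 to 10.6 CPM (log2 fold change between the knockdown lines 1.89, SE 0.185, adjusted p = 2.95e-06). Ccl2, a chemokine gene for monocytes, was at 15.9, 16.9 and 15.2 CPM against 22.7, 25.4 and 20.9 CPM, and at 58.9 to 67.3 CPM in cntrl (log2 fold change 0.52, SE 0.087, adjusted p = 4.99e-04). For Mmp9 and Ccl2 the groups did not overlap, and both passed in SnxB, with log2 fold changes of 1.74 and 0.52. Snai2, a transcription factor gene of epithelial-mesenchymal transition, was at 0.094, 0.171 and 0 CPM against 0.348, 0.255 and 0.164 CPM, levels near those of 3 counts, and it did not pass (adjusted p = 0.109), with cntrl at 1.6 to 1.86 CPM.

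Secreted proteases, integrins and cytokines are set here against the 11.3% of all genes tested that were higher and the 10.6% that were lower. Of 17 matrix proteases and inhibitors, 6 were higher and 0 lower (median 0.22). With each library left out 4 or 5 were higher, and 1 was lower without shCdk8-1 replicate 2 or shCdk8-2 replicate 2. Mmp3, another metalloprotease gene, was at 0.893, 0.171 and 0.671 CPM against 2.09, 1.58 and 2.68 CPM, far under the 95.7 to 106 CPM of cntrl (log2 fold change 1.79, adjusted p = 8.42e-04). Plau, which encodes urokinase, rose by 0.62 (adjusted p = 3.71e-06). Of 13 integrins, 5 were higher and 0 lower (median 0.13), and 4 or 5 were higher with each library left out. Itgb7 was at 6.53, 6.61 and 5.89 CPM in shCdk8-1, at 19.3, 22 and 19 CPM in shCdk8-2 and at 80.3 to 86.8 CPM in cntrl (log2 fold change between the knockdown lines 1.66, SE 0.0771, adjusted p = 1.21e-09), and Itgb3 rose by 0.97 (adjusted p = 9.66e-07).

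Of 15 chemokine and cytokine genes, 7 were higher and 2 lower, with the highest median of the lists above 10 tested members, 0.45. With each library left out 5 or 6 were higher. Il33, an alarmin gene, was at 1.69, 0.855 and 0.93 CPM against 2.52, 2.2 and 2.79 CPM (log2 fold change 1.07, adjusted p = 1.67e-03), and Cx3cl1 rose by 0.74 and Csf1, the macrophage growth factor gene, by 0.34. The members that fell were Vegfa and Tgfb3, but Vegfa did not pass without shCdk8-1 replicate 1 or 3 or shCdk8-2 replicate 1 or 3 (adjusted p of 0.0599 to 0.135), nor Tgfb3 without shCdk8-1 replicate 2 or shCdk8-2 replicate 1 (0.0549 and 0.0515). In the list of NF-kB subunits and feedback genes, 5 of 12 were higher and 1, Birc3, was lower, with 3 of 9 higher outside chromosomes 10 and 19. The shares over all genes tested were 11.3% higher and 10.6% lower. Birc3 did not pass without shCdk8-1 replicate 2 or 3 or shCdk8-2 replicate 3 (adjusted p of 0.0525 to 0.0644). Rela, which encodes the p65 subunit, rose from 115 ± 4.93 to 137 ± 7.84 CPM (SD, n = 3 each; adjusted p = 6.01e-04), and Nfkbia, which encodes its inhibitor, from 42.4 ± 3.20 to 56.0 ± 5.78 CPM (SD, n = 3 each; adjusted p = 9.09e-04). Of 14 AP-1 and EGR genes, 4 were higher, among them Dusp1 (log2 fold change 0.45) and Fosl1 (0.37), and 1, Dusp6, was lower, and 2 were higher without shCdk8-1 replicate 1 or shCdk8-2 replicate 2.

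Matrix genes split in both directions. Of 16 collagen genes, 3 were higher and 6 lower, against 11.3% and 10.6% of all genes tested. Col6a1 fell from 1498 ± 42.9 to 1122 ± 27.6 CPM (SD, n = 3 each; log2 fold change -0.42, adjusted p = 8.87e-06), whereas Col18a1, a basement membrane collagen gene, rose from 238 ± 3.27 to 315 ± 11.3 CPM (log2 fold change 0.40, adjusted p = 3.59e-06). Both lie on chromosome 10. Of 15 matrix glycoproteins, 4 were higher and 4 lower. Besides Thbs1, Spp1, which encodes osteopontin, fell by 0.94 (238, 233 and 234 CPM against 129, 121 and 120 CPM, adjusted p = 4.79e-09), while Tnc, which encodes tenascin C, rose from 3.2, 4.27 and 3.56 CPM to 8.75, 10.2 and 9.37 CPM (log2 fold change 1.36, SE 0.151, adjusted p = 1.12e-05).

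Of 12 contractile and SRF target genes, 6 were higher and 0 lower, against 11.3% and 10.6% of all genes tested, and 5 or 6 were higher with each library left out. Acta2 was at 94.6, 92.4 and 96.8 CPM in shCdk8-1 and at 207, 216 and 202 CPM in shCdk8-2, with cntrl in between at 133 to 148 CPM (log2 fold change between the knockdown lines 1.14, SE 0.0422, adjusted p = 9.78e-11). Actg2, which encodes another smooth muscle actin, was at 0.423, 0.456 and 0.103 CPM against 1.87, 2.3 and 1.21 CPM (log2 fold change 2.44, adjusted p = 2.93e-04). In both actin genes the cntrl mean (142 and 0.568 CPM) lay between the means of the knockdown lines, and in Actg2 the cntrl libraries overlapped those of shCdk8-1.

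All 6 tested genes of keratins and junctions passed, 4 higher and 2 lower, against 11.3% and 10.6% of all genes tested. Krt8 was at 7.19, 7.81 and 7.54 CPM against 12.1, 13.3 and 13.6 CPM (log2 fold change 0.79, adjusted p = 8.91e-06), with cntrl at up to 0.0616 CPM, and Pkp2, a desmosome gene, rose by 0.51. Jup and Tjp1 fell by 0.37 and 0.25, and Tjp1 did not pass without shCdk8-1 replicate 2 or any 1 of the shCdk8-2 libraries (adjusted p of 0.0510 to 0.0813). Of 13 regulators and markers of epithelial-mesenchymal transition, 3 were higher and 2 lower. Ovol1, which encodes a factor that favors the epithelial state, was at 0.423, 0.627 and 0.62 CPM against 1.09, 1.69 and 1.04 CPM (log2 fold change 1.19, adjusted p = 7.20e-03), and Twist1, which encodes a factor that favors the mesenchymal state, rose by 0.36 (adjusted p = 6.31e-05). The epithelial marker Cdh1 had the lowest log2 fold change of the list, -1.38, at 0.611, 0.798 and 0.568 CPM against 0.131, 0.102 and 0.548 CPM. Cdh1 did not pass (adjusted p = 0.0869), but it passed without shCdk8-2 replicate 3 (adjusted p = 0.0164).

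Signaling pathways held single genes with larger changes. In the Wnt list, 3 of 16 genes were higher and 4 lower, against 11.3% and 10.6% of all genes tested. Ctnnb1, which encodes beta-catenin, fell from 1103, 1156 and 1124 CPM to 715, 738 and 718 CPM (log2 fold change -0.64, SE 0.0356, adjusted p = 7.73e-09), and the ligand genes Wnt7b and Wnt10a went in opposite directions, with log2 fold changes of -0.45 and 1.17. In the Notch list, 2 of 12 genes were higher and 0 lower. Dll1, a Notch ligand gene, was at 0.611, 0.342 and 0.362 CPM against 2, 2.04 and 2.52 CPM, and at 13.6 to 16.1 CPM in cntrl (log2 fold change between the knockdown lines 2.26, SE 0.25, adjusted p = 1.09e-05), while Notch4 (log2 fold change 1.23, adjusted p = 0.0458) passed only with all 6 libraries or without shCdk8-2 replicate 2 (otherwise adjusted p up to 0.145).

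In the TGF-beta and BMP list, 5 of 22 genes were higher and 1 lower, including the ligand gene Tgfb2 (log2 fold change 0.45) and Ltbp1 (0.35), which encodes a latent TGF-beta binding protein. Of 17 receptor tyrosine kinases, 3 were higher and 1 lower, and Met and Axl rose by 0.28 and 0.19. The higher kinases were 4 without shCdk8-1 replicate 2 and 2 without any other library, and the lower ones 0 to 2. Both lists stand against 11.3% higher and 10.6% lower among all genes tested. Among markers of other cell types, Pecam1, which encodes the adhesion molecule CD31, was at 14.7, 14.9 and 13.3 CPM in shCdk8-1 and 6.09, 5.82 and 5.64 CPM in shCdk8-2 (log2 fold change -1.29, adjusted p = 5.30e-08). Cdh5, another endothelial marker, rose (log2 fold change 1.49, adjusted p = 6.63e-03) but had only 3 to 13 counts in the 6 libraries, and Kdr and Tek had at most 4 and 5. Vwf had 22 to 45 counts and did not pass. The 5 endothelial markers summed to 15.4 to 17.3 CPM and 7.56 to 8.88 CPM. The fibroblast markers Dcn and Col1a1 fell by 1.18 and 0.74 on the log2 scale (adjusted p = 3.13e-03 and 4.47e-04). Col3a1 rose by 0.26 (adjusted p = 6.99e-04), and the other 2 tested did not pass. The 7 fibroblast markers, mostly Col3a1, summed to 1773 to 1902 CPM in shCdk8-1 and 2075 to 2194 CPM in shCdk8-2, and Thy1 was at 0 in the 6 libraries. Their part in the results was not tested. Neither of the 2 tested leukocyte markers and 0 of 7 mitochondrially encoded genes passed, the latter with a median of 0.32, and 5 of the 7 were higher without shCdk8-1 replicate 3.

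**Figure D4:**
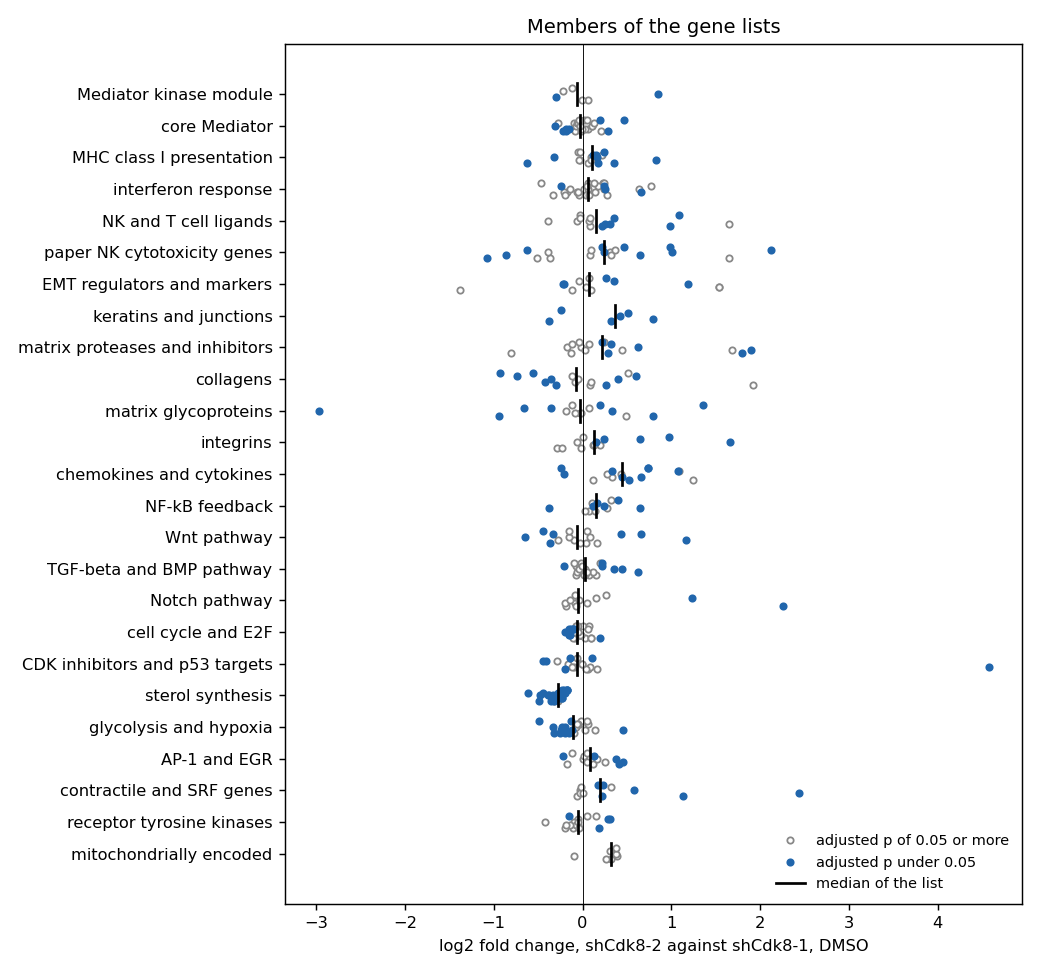
Fitted log2 fold change of shCdk8-2 against shCdk8-1 in DMSO (x axis) for the tested members of each gene list (y axis). Each point is a gene, filled where its adjusted p was under 0.05, and the black tick is the median of the list. The sterol synthesis genes lie together to the left of 0, with 23 of 25 filled.

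The difference between the lines also had a chromosomal component. On chromosome 19 the median log2 fold change over 426 tested genes was 0.18, 208 genes were higher and 9 lower at an adjusted p under 0.05, and 87.6% of the genes had a positive value. On chromosome 10 the median over 621 genes was -0.14, with 18 genes higher and 235 lower. The medians of the remaining chromosomes lay between -0.03 and 0.08, chromosome 12 being the highest of them, and the median over all genes was -0.00. In SnxB the medians were 0.18 for chromosome 19 and -0.14 for chromosome 10, and without shCdk8-2 replicate 3 they were 0.19 and -0.14 in DMSO. These chromosomes were picked after the values were seen, and no test was run on the medians.

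Single libraries showed the same separation. Measured from the midpoint of the 2 lines, the chromosome 19 median was -0.10 to -0.09 in the shCdk8-1 libraries and 0.09 to 0.10 in the shCdk8-2 libraries in DMSO, and that of chromosome 10 was 0.07 in each shCdk8-1 library and -0.07 to -0.06 in the shCdk8-2 libraries. Against cntrl, the chromosome 19 median was 0.05 in shCdk8-1 and 0.23 in shCdk8-2, and the chromosome 10 median was 0.11 and -0.02. When each chromosome was split into 3 parts of equal gene number, the medians were 0.16 to 0.20 along chromosome 19 and -0.15 to -0.14 along chromosome 10. Of the genes named above, Fas, Ovol1, Il33, Rela, Fosl1, Acta2, Slit1 and Cd274 lie on chromosome 19, and Cdk19, Med23, Lss, Pfkl, Col6a1, Dusp6, Dcn, Esr1, Lyz2, Itgb2, Col18a1, Raet1d and Raet1e on chromosome 10. Except for Cd274 and Lyz2, their log2 fold changes were larger in size than the median of their chromosome, and Itgb2, Col18a1, Raet1d and Raet1e ran against the direction of chromosome 10. Whether the chromosome had a part in these values was not tested.

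**Figure D5:**
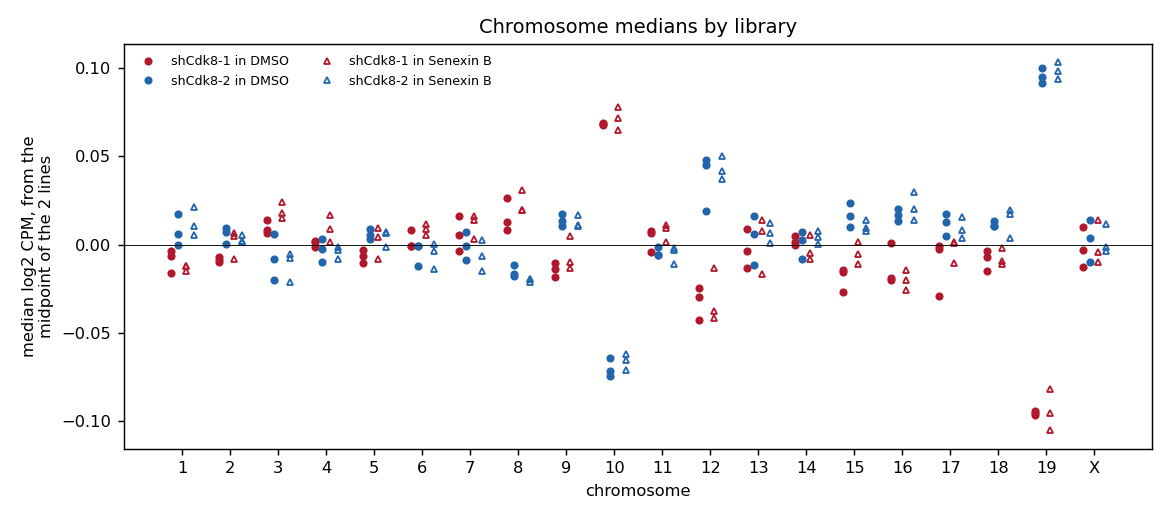
Median log2 CPM of the tested genes of each chromosome (x axis), as the deviation from the midpoint of the 2 knockdown lines in the same treatment (y axis). Each symbol is a library, filled circles for DMSO and open triangles for SnxB. Chromosomes 10 and 19 separate the lines in every library of both treatments, in opposite directions.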

How the data were processed

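RNA of E0771 cells was sequenced as 50 bp single-end reads. The authors trimmed the reads with Trimmomatic, mapped them with STAR to GRCm38 and counted them by strand on GENCODE M13 exons with featureCounts 1.5.1, with 1 table per library. The deposited values are raw read counts per gene, with no normalization, for 50686 genes, of which 50376 received a symbol from GENCODE M21 of the same build. By the program's defaults, multi-mapping reads and reads over more than 1 gene are not counted, so levels of near-identical genes are uncertain.

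Counts were analysed with edgeR 4.0.16 in R 4.3.3: filterByExpr (minimum count 10, minimum total 15), TMM scaling, and quasi-likelihood F tests, adjusted by Benjamini-Hochberg. The main model was fitted to 12 libraries (cntrl in DMSO and SnxB, shCdk8-1 and shCdk8-2 in DMSO), and the SnxB and interaction tests to all 18. A called gene had a change above 2-fold with its adjusted p under 0.05. CPM were computed on TMM-scaled library sizes, SE from the F statistic. Depth (16452260 to 22664693 counts per library) sets a floor of 3 counts, and intervals cover counting error only, since reads carry no molecular identifiers. Genes from 29 lists, 12 per direction by size, the genes the study names and the 6 smallest interaction p among called genes were named. The members and lists were chosen with earlier results of these data known. In simulated counts with 200 genes changed 3-fold, 200 were recovered with 1 false call (DMSO, 12371 genes), 200 with 1 (SnxB, 12493 genes) and 199 with 1 (interaction, 12509 genes). The changed genes were drawn only from genes above a minimum mean count, so these recoveries do not cover genes with few counts. They also do not cover changes smaller than 3-fold, in the interaction as well. Alternatives were DESeq2 1.42.0, other scalings, filters, thresholds and library sets, glmTreat, the replicate block and each library left out. Headers of the shCdk8-2 tables carry the replicate numbers 2, 3 and 3 for labels 1, 2 and 3, and the labels were used. All pairs of replicates differed beyond counting noise (mean chi-square per gene 1.68 or more). Figures were drawn with matplotlib. No hairpin sequence is printed, and matches of the hairpins to other genes were not analysed here. Single values of some list members are not reported here.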

Additional observations from a re-analysis of the deposited data

How the results depend on the processing

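The number of called genes in DMSO was 261. It was 2766 with the adjusted p alone and 69 with glmTreat against a 2-fold change, both of which change the threshold itself. Under the other settings it lay between 200 and 317, and between 239 and 269 with each library left out. In SnxB the count was 268, with 195 to 268 under other settings and 242 to 263 with each library left out, and the interaction gave 0 genes in each setting run. The log2 fold change of Cdk8 was 0.85, 0.77 to 0.92 with each library left out and 0.85 to 0.87 otherwise. Of 98 named genes, 4 changed sign in some setting, and none of them passed the test as reported: Med13l had 0.012 with library totals and -0.024 to 0.026 over the libraries left out, Med13 had -0.19 to 0.016, Cd274 -0.066 to 0.27 and Prkcb -3.18 to 1.11. The cause was not tested. Of 79 named genes that passed, 7 did not in at least 1 setting (Rn7sk, Cxcl10, Nfatc2, Raet1d, Vav1, Notch4 and F2rl3), and of 47 that were called, 11 were not in at least 1 setting: Rn7sk, Vav1, Notch4, F2rl3, Gm15564, Mir6236, Plcg2, Ptk2b, Il33, Ovol1 and Runx1t1. Settings that change a threshold, glmTreat among them, were not counted in either number. Other list members whose values are given above, such as Fasn, Ankrd37, Birc3, Vegfa, Tgfb3 and Tjp1, are not among these 98. Of 193 genes that passed and were on a list or named, 52 did not pass with some library left out (26 to 39 for each).

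With the replicate number as a block, 255 genes were called in DMSO, 267 in SnxB and 0 in the interaction, and Cdk8 had a log2 fold change of 0.85. Vav1 and Notch4 did not pass in this model. No pairing by number was seen, as deviations of same-numbered libraries correlated at -0.07 to -0.01 in DMSO and -0.13 to -0.03 in SnxB. Differently numbered libraries correlated at -0.01 to 0.06 in DMSO, and these values do not settle whether the libraries were paired. Levels under 3 counts per library cannot be told from 0 at this depth, and with 3 libraries per line small differences can be missed. Counts of list members with each library left out, and outside chromosomes 10 and 19, were added after seeing the data.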

Other observations

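Chromosomes 12 and 16 were split within themselves, and they were picked after their values were seen. On chromosome 12, the median log2 fold change of shCdk8-2 against shCdk8-1 was 0.15 over the first 140 tested genes, 0.11 over the next 139 and -0.07 over the last 139, and in SnxB it was 0.18, 0.12 and -0.06. On chromosome 16 it was 0.16 over the first 130 genes, -0.10 over the next 129 and -0.02 over the last 129, and in SnxB it was 0.17, -0.10 and 0.00. In the first of these parts of chromosome 16, 51 genes were higher and 3 lower at an adjusted p under 0.05, and in the second 9 were higher and 40 lower. Med15 and Gm15564 are among the genes of chromosome 16 described above.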
